A study of Homo sapiens with 22 samples.

Results

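The TGF-beta and activin ligands and receptors are 10 genes that were chosen by symbol: the ligand genes TGFB1, TGFB2 and TGFB3, the activin subunit genes INHBA and INHBB, and the receptor genes TGFBR1, TGFBR2, TGFBR3, ACVR1B and ACVR2A. All 10 symbols were found among the 33538 genes of the first single-cell experiment and among the 36601 genes of each of the other 2. The study profiled BRAF V600E mutated WM989 melanoma cells in a primed state, which survives BRAF and MEK inhibition, and in a drug-susceptible state, together with a second melanoma line, WM983B. RNA was measured by droplet scRNA-seq as UMIs from the 3′ ends of transcripts, and open chromatin of sorted WM989 cells by OMNI-ATAC. The state of a cell is the one that the deposited cell table gives.

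The first experiment held 12531 untreated WM989 cells in 8 wells, of which r1 and r2 had 4 each, grown from wells of mixed cells and of cells sorted high for EGFR and NGFR. The cell table puts 2843 of them in the primed and 9688 in the drug-susceptible state, and does not give the sort of a well. Each culture was split over 2 wells of the chip at loading, so wells share cultures in pairs that the table does not name, and 8 wells are not 8 independent cultures. The second experiment held 1449 untreated WM983B cells in 1 library, 731 of them primed. In the third experiment, barcoded WM989 cells of a starting well were split over 4 plates and for 5 days left untreated (Control), or given 5 ng/mL recombinant TGFB1, 4 µM of the TGFBR1 and TGFBR2 kinase inhibitor LY2109761 (TGFBRi) or 2 µM of the PI3K inhibitor GDC-0941 (PI3Ki), with 2 libraries each (r1 and r2) and 40021 cells in all. The sample labels name these 2 replicates Mix and Primed, and which of them is r1 was not settled. The ATAC-seq experiment held 3 libraries each of 4 sorts: high for EGFR (EGFR-High), for NGFR (NGFR-High) or for both (EGFR-NGFR-High), and negative for both, which the labels call Mix. Both lines are clones that passed through a single cell more than once, so each line stands for 1 clone. Replicates are separate cultures carried in parallel only as far as the methods say so, and p-values measure the spread between these libraries.

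TGF-beta ligands and activins are secreted dimers. A ligand joins type II receptors (TGFBR2 for TGF-beta, ACVR2A for activins) with type I receptors (TGFBR1, ACVR1B), whose kinase then phosphorylates SMAD2 and SMAD3, and these enter the nucleus with SMAD4. TGFBR3, betaglycan, is a co-receptor without a kinase that presents ligand, TGFB2 above all, and binds inhibin. TGF-beta ligands are stored in the matrix in a latent form, and melanoma cells are known both to secrete and to respond to them.

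The sequences of 3 intronic regions are shown because each was called more open in NGFR-High and EGFR-NGFR-High cells, though not in EGFR-High cells (values below). Those of 2 promoters are shown because TGFB1 and INHBA had the largest state ratios of the ligand genes. The regions are 201 bases of the plus strand of hg38 about the peak summit, at chr9:99147983-99148183 in an intron of TGFBR1, chr3:30659291-30659491 in an intron of TGFBR2 and chr1:91830376-91830576 in an intron of TGFBR3. The promoters are the 200 bases before the RefSeq start on GRCh38.p14, minus strand, at chr19:41353923-41354122 for TGFB1 and chr7:41703091-41703290 for INHBA. Capitals mark matches to the AP-1 motif TGANTCA or the TEAD motif GGAATG in the regions, to the GC box GGGCGG in the TGFB1 promoter and to the TATA box TATAAA in the INHBA promoter, on either strand and with overlaps counted.
TGFBR1 intron region: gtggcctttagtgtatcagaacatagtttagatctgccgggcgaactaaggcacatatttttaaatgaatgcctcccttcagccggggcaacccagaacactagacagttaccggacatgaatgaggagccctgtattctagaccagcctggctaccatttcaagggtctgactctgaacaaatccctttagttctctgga
TGFBR2 intron region: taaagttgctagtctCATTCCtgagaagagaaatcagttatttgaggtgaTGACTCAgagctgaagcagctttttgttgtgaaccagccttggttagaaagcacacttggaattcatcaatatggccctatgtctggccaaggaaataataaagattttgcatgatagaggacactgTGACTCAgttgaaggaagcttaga
TGFBR3 intron region: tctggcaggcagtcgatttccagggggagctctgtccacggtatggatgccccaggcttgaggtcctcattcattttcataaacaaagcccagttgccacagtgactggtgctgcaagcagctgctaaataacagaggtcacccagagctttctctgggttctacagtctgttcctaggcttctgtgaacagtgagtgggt
TGFB1 promoter: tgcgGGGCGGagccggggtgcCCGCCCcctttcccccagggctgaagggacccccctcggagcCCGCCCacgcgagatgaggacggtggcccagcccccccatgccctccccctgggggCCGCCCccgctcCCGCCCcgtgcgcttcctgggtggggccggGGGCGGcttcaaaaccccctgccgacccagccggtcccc
INHBA promoter: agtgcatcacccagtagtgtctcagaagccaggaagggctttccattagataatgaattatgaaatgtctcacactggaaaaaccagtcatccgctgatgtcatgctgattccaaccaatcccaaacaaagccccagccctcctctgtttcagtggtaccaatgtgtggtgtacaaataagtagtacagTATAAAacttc
The TGFBR2 region held 2 AP-1 matches and 1 TEAD match, where 12.5% of 18986 regions of the same length on the chromosomes of the called regions held an AP-1 match and 13.3% a TEAD match. The TGFB1-linked region, which was also more open but whose gene is uncertain, is not shown and held 2 AP-1 matches and no TEAD match. The TGFBR1 and TGFBR3 regions held neither motif, and none of the 4 held the SMAD motif GTCTAGAC (0.163% of regions) or the MITF E-box CATGTG (14.1%). The TGFB1 promoter, of 79.5% GC, held 6 GC boxes within 250 bases, and 42.6% of 35093 RefSeq promoters held at least 1. The INHBA promoter, of 43.5% GC, held 1 TATA box, which 10.7% of promoters held. A match is a description of these letters only.

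The labels of the states were checked against marker genes. In WM989, drug-susceptible and primed cells had 3.37 and 48.1 CPM (UMI counts scaled to the same total, the unit used throughout) of EGFR, 0.469 and 42.3 CPM of AXL, 130 and 7.09 CPM of SOX10 and 1683 and 59.0 CPM of MLANA. In WM983B, AXL had 24.2 and 76.2 CPM, NGFR 12.3 and 56.1 CPM and MLANA 59.8 and 2.40 CPM in the same order, but EGFR had only 2.21 and 3.13 CPM and SOX10 208 and 192 CPM, so that line's primed cells carried part of the WM989 pattern. Of the markers of other cell types, the fibroblast gene PDGFRA (0.734 to 47.3 CPM) and the endothelial genes PECAM1 (0.183 to 22.8 CPM) and VWF (0.312 to 2.47 CPM) also differed between the WM989 states, while CDH5 had at most 2 counts in a state, KRT5 and KRT1 had 0, KRT14 and CD3E had at most 3, and PTPRC stayed at or under 0.0591 CPM. LUM (32.2 to 16.9 CPM) and DCN (1.33 to 6.19 CPM) differed in opposite directions. The median percent of mitochondrial reads was lower in primed than in drug-susceptible WM989 cells (8.54 and 15.5% in r1, 7.13 and 11.7% in r2), and the part of these values in the results was not tested. Cell barcodes found in over 1 library made up 0.152% of barcodes in the first and 0.487% in the third experiment.

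In untreated WM989 cells, primed cells carried more transcripts of the ligand genes TGFB1 and INHBA and of both signalling TGF-beta receptors, TGFBR1 and TGFBR2. The other members differed little or were lower. Both states were defined on these counts, in 1 sample, so the values are a description without a test, and intervals are 95% exact Poisson intervals, or intervals of the ratio, that cover counting error only. How many of all genes separate the states in every well was not counted. Wells without overlap, or wells that agree in direction, therefore do not set a member apart from other genes.

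TGFB1 had 20.5 CPM in drug-susceptible and 124 CPM in primed cells, a ratio of 6.07 (5.93 to 6.21). The replicates differed in level, with 26.2 and 173 CPM in r1 and 11.1 and 73.5 CPM in r2, but hardly in ratio (6.58 and 6.60). The ratio over all cells lay below both, outside its own interval of counting error. It ranged from 5.22 to 6.68 without 1 well and was 7.02 (6.64 to 7.42) with every cell thinned to 10000 UMIs. Over the 8 wells, primed cells had 55.9 to 207 CPM (median 98.6) and drug-susceptible cells 9.48 to 35.1 CPM (median 17.4). The well sums of the 2 states did not overlap, and within each state the 4 wells of r1 all lay above the 4 wells of r2.

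INHBA, whose product forms activin A, had 0.263 CPM in drug-susceptible and 7.98 CPM in primed cells. This was the largest ratio among the members, 30.3 (25.6 to 36.2), with 29.1 in r1 and 31.0 in r2. Primed cells ranged from 1.90 to 12.8 CPM over the wells (median 5.11) and drug-susceptible cells from 0.173 to 0.388 CPM (median 0.241), again without overlap. The drug-susceptible level rested on 3 to 45 counts per well.

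The other ligand genes did not share this pattern. TGFB2 had 2.28 CPM in drug-susceptible and 1.31 CPM in primed cells, a ratio of 0.573 (0.498 to 0.656), and was higher in primed cells in 0 of 8 wells. Of its 1274 drug-susceptible counts, 295 came from 1 cluster of cells, described below. The replicates were apart in size, with a ratio of 0.426 for r1 and of 0.783 for r2. TGFB3 was at 0.707 and 0.369 CPM, a ratio of 0.522 (0.400 to 0.674), with 0.585 in r1 and 0.437 in r2, and higher in primed cells in 1 of 8 wells. INHBB had 5 counts in all drug-susceptible and 1 count in all primed cells, so no direction can be read.

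Among receptor genes, TGFBR1 had 26.1 CPM in drug-susceptible and 174 CPM in primed cells, a ratio of 6.65 (6.52 to 6.78). By replicate the levels were 21.9 and 145 CPM in r1 and 33.0 and 204 CPM in r2, so that r2 was the higher replicate here and the lower one for TGFB1. TGFBR2 had 4.21 and 27.5 CPM, a ratio of 6.53 (6.22 to 6.86), with 7.25 in r1 and 5.51 in r2. Neither receptor's well sums overlapped between the states, with 104 to 222 CPM against 20.4 to 38.8 CPM for TGFBR1 and 18.5 to 32.3 CPM against 3.05 to 7.61 CPM for TGFBR2.

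The activin receptors and betaglycan differed by far less. ACVR2A had 3.28 and 5.10 CPM, a ratio of 1.55 (1.44 to 1.68) over all cells that lay above those of r1 (1.35) and r2 (1.501), and was higher in primed cells in 8 of 8 wells although the ranges overlapped. ACVR1B had 5.43 and 6.47 CPM, a ratio of 1.19 (1.12 to 1.28), also above those of r1 (1.13) and r2 (1.14), and was higher in 7 of 8 wells. TGFBR3 had 7.44 and 6.92 CPM, a ratio of 0.930 (0.874 to 0.989), but of 0.668 in r1 and 1.01 in r2, and was higher in primed cells in 4 of 8 wells.

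**Figure D1:**
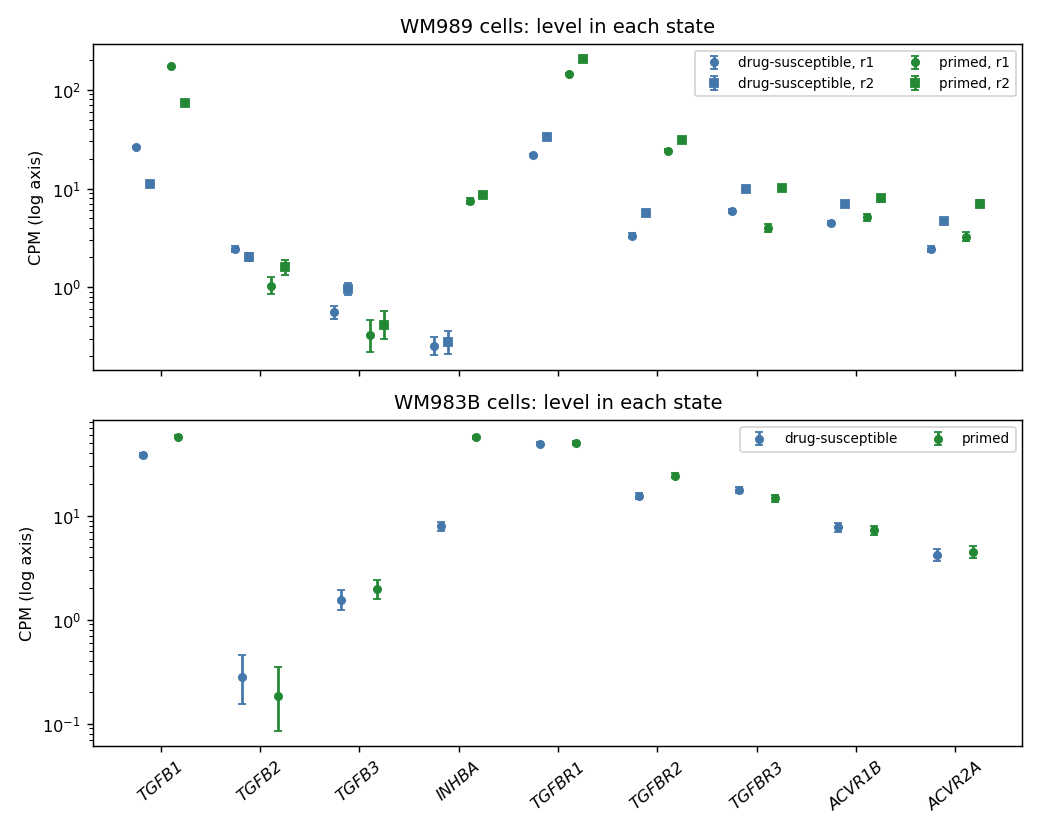
Levels in CPM (log axis) of 9 members (INHBB, at 5 counts or fewer, is left out) in drug-susceptible (blue) and primed (green) cells, for WM989 by replicate (circles r1, squares r2) and for the 1 WM983B library, with 95% exact Poisson intervals. In WM989 the primed points of TGFB1 (173 and 73.5 CPM), INHBA (7.42 and 8.58 CPM), TGFBR1 and TGFBR2 lie far above the drug-susceptible points of their replicate, whereas in WM983B the widest gap is that of INHBA (57.0 against 7.88 CPM) and TGFBR1 shows none (49.8 against 49.5 CPM).

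In WM983B, INHBA led and TGFBR1 did not differ. INHBA had 7.88 CPM in drug-susceptible and 57.0 CPM in primed cells, a ratio of 7.22 (6.52 to 8.02). TGFB1 had 38.6 and 57.5 CPM, a ratio of 1.49 (1.41 to 1.58), and TGFBR2 15.5 and 24.3 CPM, a ratio of 1.57 (1.43 to 1.71). TGFBR1 stood at 49.5 and 49.8 CPM, a ratio of 1.01 (0.952 to 1.06), whose interval ends far below the 6.65 of WM989.

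TGFBR3 was the only member whose interval lay below 1 in this line, at 17.5 and 14.8 CPM and a ratio of 0.841 (0.763 to 0.928). The intervals of TGFB2 (0.662, 0.256 to 1.62), TGFB3 (1.26, 0.932 to 1.71), ACVR1B (0.930, 0.805 to 1.07) and ACVR2A (1.07, 0.888 to 1.30) spanned 1, and INHBB had 3 counts in drug-susceptible and 0 in primed cells, which allows up to 0.0755 CPM by the same 95% interval. With 1 library, none of these ratios has a replicate check. The difference between the lines was not tested.

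The primed clusters differed for these genes in counts summed over r1 and r2. In the first experiment the authors' clusters 2, 8 and 9 form the primed state, and TGFB1 had 142, 95.7 and 101 CPM in them against 13.6 to 29.6 CPM in the 8 drug-susceptible clusters. TGFBR1 had 213, 109 and 124 CPM (19.9 to 33.3 CPM in drug-susceptible clusters) and TGFBR2 30.4, 21.7 and 24.6 CPM (3.71 to 5.52 CPM). For all 3 genes cluster 2 was the highest of the primed clusters. INHBA was ordered differently, at 8.68, 11.8 and 3.91 CPM, with cluster 8 the highest. The replicates themselves were far apart, with 173 (r1) and 73.5 CPM (r2) of TGFB1 in primed cells. Their shares in the clusters are not given, so these cluster differences have no replicate check.

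Drug-susceptible cluster 10 stood apart for TGFB2. It had 12.2 CPM of this gene (10.9 to 13.7, from 295 counts). The other drug-susceptible clusters had 1.25 to 2.41 CPM and the primed clusters 0.845 to 1.55 CPM, so that these ranges overlapped. Cluster 10 also had the highest INHBA level of the drug-susceptible clusters, 0.872 CPM. In WM983B, INHBA had 4.55 CPM in cluster 1 and 28.6 CPM in cluster 3, both drug-susceptible, and 48.3 CPM in cluster 0 and 114 CPM in cluster 2, both primed. TGFB1 kept the same order, at 36.8, 50.1, 55.3 and 72.2 CPM. For INHBA, TGFB1 and TGFBR2 (19.6 CPM) cluster 3 therefore lay between the clusters of the states. For TGFBR1 (42.4 CPM), TGFBR3 (14.4 CPM), ACVR1B (6.68 CPM) and ACVR2A (4.01 CPM) cluster 3 had the lowest value of that line's clusters. Its intervals for TGFBR3 (11.8 to 17.4), ACVR1B (4.96 to 8.81) and ACVR2A (2.70 to 5.72) held the level of the next lowest cluster. For these genes the rank thus lay within counting error. Without cluster 3 the INHBA ratio of that line was 12.5 in place of 7.22.

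**Figure D2:**
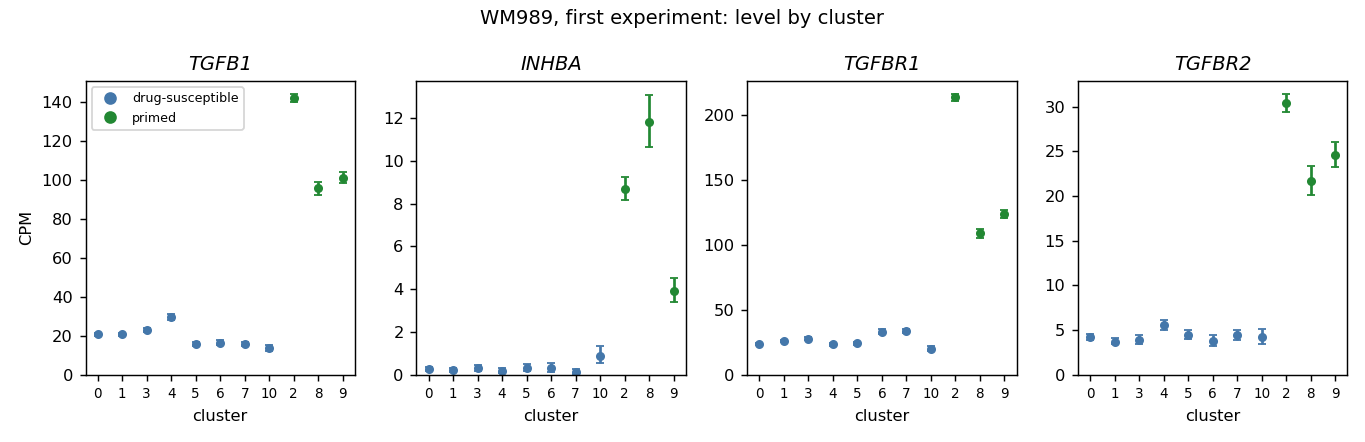
CPM of TGFB1, INHBA, TGFBR1 and TGFBR2 in each of the authors' clusters of the first experiment, with 95% exact Poisson intervals, drug-susceptible clusters in blue and the primed clusters 2, 8 and 9 in green. The primed clusters lie above all drug-susceptible clusters for the 4 genes, with cluster 2 highest for TGFB1 (142 CPM), TGFBR1 (213 CPM) and TGFBR2 (30.4 CPM) and cluster 8 highest for INHBA (11.8 CPM).

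The genes most like 3 of the members were sought over the 24 clusters of both WM989 experiments, among 7361 genes that reached 20 CPM in 1 cluster or more. Pearson's r of log2(CPM + 1), centred within each experiment, was highest for MT1X (0.980), C14orf132 (0.969) and PLPPR2 (0.969) with TGFB1. It was highest for ALOX5AP (0.953), GLIPR1 (0.952) and NUMB (0.952) with TGFBR1, and for SCG5 (0.963), SLC12A8 (0.962) and VEGFC (0.958) with INHBA. The clusters share libraries and differ mainly by state, so these values are descriptions over 24 points that are not independent.

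The third experiment asked how 5 days of added ligand, of receptor inhibition and of PI3K inhibition changed these cells, and here the libraries could be tested. Primed cells made up 2.26 and 4.47% of Control cells in r1 and r2, 29.1 and 31.3% with TGFB1, 2.26 and 4.32% with TGFBRi and 0.647 and 1.21% with PI3Ki. A change in counts summed over all cells therefore holds both a change in the mixture and a change within cells, and in such sums fewer cells of a kind and less RNA per cell cannot be told apart. For that reason each test was repeated on drug-susceptible and on primed cells alone, although the state was itself called from these counts after treatment. Libraries held 70239657 to 122420544 UMIs. The median UMIs per cell differed between treatments, at 18457 and 21720.5 in Control (r1 and r2), 13767 and 14284 with TGFB1, 14918 and 13013 with TGFBRi and 17386 and 20059 with PI3Ki, and their part in the changes was not tested.

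The untreated libraries of this experiment gave values for the states in a further culture. TGFB1 had 16.5 and 14.4 CPM (r1 and r2) in drug-susceptible and 48.4 and 50.3 CPM in primed Control cells. TGFBR2 had 5.81 and 5.93 against 26.8 and 35.8 CPM, and TGFBR1 23.0 and 26.2 against 50.7 and 48.3 CPM. These genes were higher in the primed cells of both libraries, and for TGFB1 and TGFBR1 the gap was smaller than in the first experiment. TGFB2 also had more in primed cells of both libraries, 1.49 and 6.84 against 0.638 and 0.926 CPM, opposite in direction to the first experiment, but the primed values rest on 2 and 17 counts. TGFBR3 had 13.4 and 6.44 CPM in primed and 8.48 and 9.13 CPM in drug-susceptible cells, so its direction differed between the libraries. INHBA rested on 2 and 5 counts in primed Control cells.

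Added TGFB1 moved 5 of the 9 members tested in all cells. By edgeR's quasi-likelihood test with Benjamini-Hochberg adjustment over 18389 genes, TGFB1, INHBA, TGFBR1 and TGFBR2 rose and TGFBR3 fell, against 16.3% of all genes called higher and 12.7% called lower. INHBB did not pass the filter on low counts. The median log2 fold change of the 9 members was 0.24 and that of all genes tested 0.01. Of the 12 markers of other cell types 6 were tested, of which PECAM1 (log2 3.02, edgeR adjusted p = 1.07e-10) and PDGFRA (1.26, 8.14e-05) rose with TGFB1 in all cells and none fell. The summed level of the 3 endothelial markers was 0.611 to 0.679 CPM in Control and 2.81 to 3.63 CPM with TGFB1, and that of the 3 fibroblast markers 29.9 to 30.4 and 27.3 to 30.1 CPM. KRT5, KRT1 and CD3E were at 0 in these libraries, CDH5 had at most 3 counts, and the leukocyte markers summed to at most 0.112 CPM. None of the 5 tested in drug-susceptible cells was called, and in primed cells, where PECAM1 did not pass (0.06, adjusted p = 0.928), only DCN was (-2.04). The part of these markers in the members' changes was not tested.

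The TGFB1 transcript, to which the added protein contributes no RNA, had 17.04 and 15.5 CPM in Control and 41.8 and 39.4 CPM in TGFB1-treated cells (r1 and r2). The treated libraries lay above all others, and the fold change was 2.47 (95% interval 2.23 to 2.74, edgeR adjusted p = 3.1e-12). In drug-susceptible cells alone the same gene had 16.5 and 14.4 CPM against 20.3 and 16.8 CPM, a fold change of 1.19 (1.06 to 1.34, edgeR adjusted p = 0.0404). That call was lost in 7 of 13 alternatives (adjusted p 0.0050 to 0.580), and without TGFB1 replicate 1 the log2 fold change was 0.13. In primed cells it had 48.4 and 50.3 CPM against 105 and 103 CPM, a fold change of 2.22 (1.81 to 2.72, edgeR adjusted p = 6.77e-08).

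INHBA had 0.230 and 0.187 CPM in Control and 2.38 and 1.74 CPM with TGFB1, the largest change among the members, at 9.68-fold (6.87 to 13.7, edgeR adjusted p = 3.3e-10). In drug-susceptible cells it had 0.208 and 0.129 CPM against 0.401 and 0.240 CPM, which did not pass the test (log2 0.91 ± 0.37 (SE), edgeR adjusted p = 0.108). In primed cells it had 1.49 and 2.01 CPM against 8.25 and 5.95 CPM, 3.96-fold higher (1.90 to 8.25, edgeR adjusted p = 0.00637). The primed call rested on few Control counts. It was lost with DESeq2 (adjusted p = 0.207) and without Control replicate 1 (0.101), Control replicate 2 (0.0902) or TGFB1 replicate 1 (0.427).

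**Figure D3:**
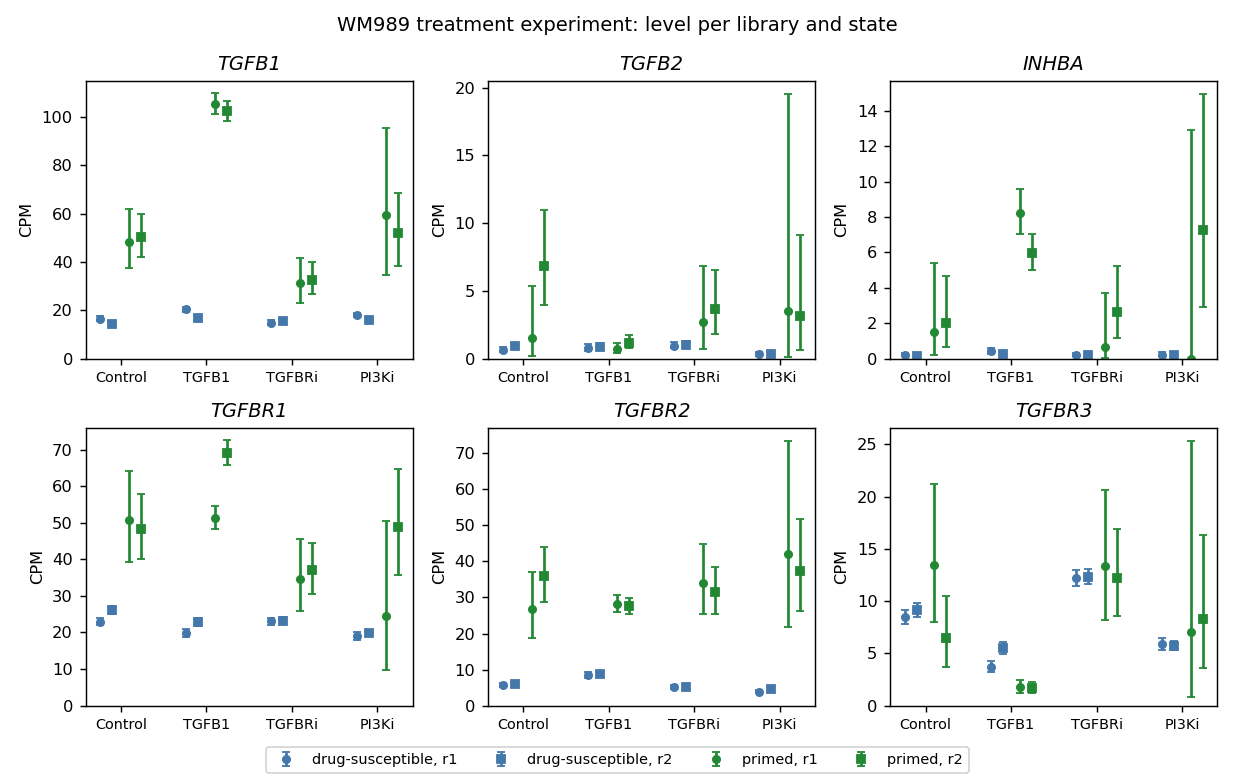
CPM of 6 members in the drug-susceptible (blue) and primed (green) cells of each library of the treatment experiment (circles r1, squares r2), with 95% exact Poisson intervals. Primed TGFB1-treated cells stand above primed Control cells for TGFB1 (105 and 103 CPM against 48.4 and 50.3 CPM) and below them for TGFBR3 (1.74 and 1.66 CPM against 13.4 and 6.44 CPM), and intervals are wide where a library had few primed cells, as with PI3Ki.

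TGFBR3 moved the other way in every population. All Control cells had 8.57 and 9.05 CPM of it and TGFB1-treated cells 3.23 and 4.47 CPM, a fold change of 0.432 (0.374 to 0.499, edgeR adjusted p = 2.48e-09). Drug-susceptible cells went from 8.48 and 9.13 CPM to 3.73 and 5.47 CPM (0.516-fold, 0.444 to 0.600, edgeR adjusted p = 4.21e-07), and primed cells from 13.4 and 6.44 CPM to 1.74 and 1.66 CPM (0.197-fold, 0.112 to 0.345, edgeR adjusted p = 2.53e-05). The groups did not overlap in any of the 3 sets of cells, and no alternative in which it was tested removed a call. With 25 primed cells per library it did not pass the filter on low counts. TGFBR3 was thus the member that fell with TGFB1 within both states, while in the first experiment its ratio between the untreated states was 0.668 in r1 and 1.01 in r2.

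TGFBR2, the ligand-binding receptor, had 6.17 and 6.86 CPM in all Control cells and 13.4 and 13.7 CPM with TGFB1, a fold change of 2.07 (1.82 to 2.35, edgeR adjusted p = 3.28e-09). In drug-susceptible cells it rose from 5.81 and 5.93 CPM to 8.48 and 8.79 CPM (1.46-fold, 1.27 to 1.67, edgeR adjusted p = 0.000252). Primed cells, already at 26.8 and 35.8 CPM, had 28.2 and 27.5 CPM with TGFB1 (log2 -0.13, -0.48 to 0.22, edgeR adjusted p = 0.711). The treated libraries lay above Control in drug-susceptible cells and within the Control range in primed cells.

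TGFBR1, the type I kinase, rose in all cells from 23.5 and 26.9 CPM to 27.7 and 35.1 CPM (1.23-fold, 1.11 to 1.36, edgeR adjusted p = 0.00219), a call lost without TGFB1 replicate 2 (adjusted p = 0.0998). In drug-susceptible cells it fell from 23.0 and 26.2 CPM to 19.8 and 22.8 CPM (0.859-fold, 0.777 to 0.948, edgeR adjusted p = 0.0328). In primed cells it had 50.7 and 48.3 CPM against 51.3 and 69.2 CPM (log2 0.39, edgeR adjusted p = 0.0995). Over 13 alternatives the log2 fold change in primed cells ranged from 0.11 to 0.60, and 1 of them gave a call. The fall in drug-susceptible cells was lost in 8 of 13 alternatives (adjusted p 0.0068 to 0.353), and the groups lay next to each other, the highest treated library at 22.8 CPM and the lowest Control library at 23.0 CPM.

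Of the 9 members tested in drug-susceptible cells, 2 rose and 2 fell with TGFB1, where 8.56% of 17914 genes were called higher and 6.32% lower. Of the 7 tested in primed cells, TGFB1 and INHBA rose and TGFBR3 fell, where 6.21% of 10930 genes were called higher and 7.09% lower. TGFB2, TGFB3 and INHBB did not pass the filter in primed cells. Of these, TGFB2 had 1.49 and 6.84 CPM (2 and 17 counts) in primed Control cells and 0.696 and 1.16 CPM with TGFB1, given as values without a test. In all cells TGFB2 had 0.653 and 1.11 CPM in Control and 0.763 and 0.955 CPM with TGFB1. TGFB2, TGFB3, ACVR1B and ACVR2A did not pass the test in any set of cells in which they were tested.

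The primed cells of the treated and untreated libraries belonged to different clusters. The authors' primed class in this experiment joins clusters 4 and 10, and 99.5% of cluster 4 came from TGFB1-treated libraries (3254 cells), while 11 of its cells came from Control. Cluster 10 held 248 Control cells, 389 TGFBRi cells, 90 PI3Ki cells and 80 TGFB1-treated cells. The primed comparison with TGFB1 is therefore largely one of cluster 4 with cluster 10.

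Within cluster 10, TGFB1-treated cells had 41.2 CPM of the TGFB1 transcript (29.4 to 56.1) and Control cells 48.7 CPM (41.8 to 56.5), so that these 80 cells did not show the rise. INHBA had 2 counts in them (2.06 CPM, 0.249 to 7.43) and 1.93 CPM (0.775 to 3.97) in Control cells of the cluster. TGFBR3 had 2 counts in them (2.06 CPM, 0.249 to 7.43) and 9.09 CPM (6.25 to 12.8) in Control cells. TGFB1-treated cells of cluster 4 had 105 CPM of TGFB1 (102 to 109), 7.16 CPM of INHBA (6.37 to 8.02) and 1.69 CPM of TGFBR3 (1.31 to 2.13). Cluster membership and these genes come from the same counts, so the split is a description with counting error only.

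The drug-susceptible cells of treated and untreated libraries also fell largely into different clusters. Of the 4007 cells of cluster 3, 94.9% came from TGFB1-treated libraries, where they made up 49.4% of drug-susceptible cells, against 1.52% in Control. This cluster, looked at because it was the highest drug-susceptible cluster for TGFBR2, had 12.2 CPM of TGFBR2 (11.3 to 13.2) in TGFB1-treated cells and 18.1 CPM (12.5 to 25.3) in its 115 Control cells. By replicate these Control cells had 11.6 CPM (10 counts) in r1 and 23.6 CPM (24 counts) in r2. In the other drug-susceptible clusters TGFBR2 had 5.66 and 6.23 CPM (r1 and r2) with TGFB1 and 5.75 and 5.70 CPM in Control, so that the rise over all drug-susceptible cells was not seen outside cluster 3. TGFBR3 was lower with TGFB1 outside cluster 3 as well, at 4.62 and 6.10 CPM against 8.41 and 9.17 CPM, and had 3.47 CPM (2.99 to 4.02) in the treated cells of cluster 3. These splits too are descriptions without a test, since the clusters were cut from the same counts. Cluster 3 was chosen by its TGFBR2 level, and that choice favours a smaller rise of TGFBR2 outside it.

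**Figure D4:**
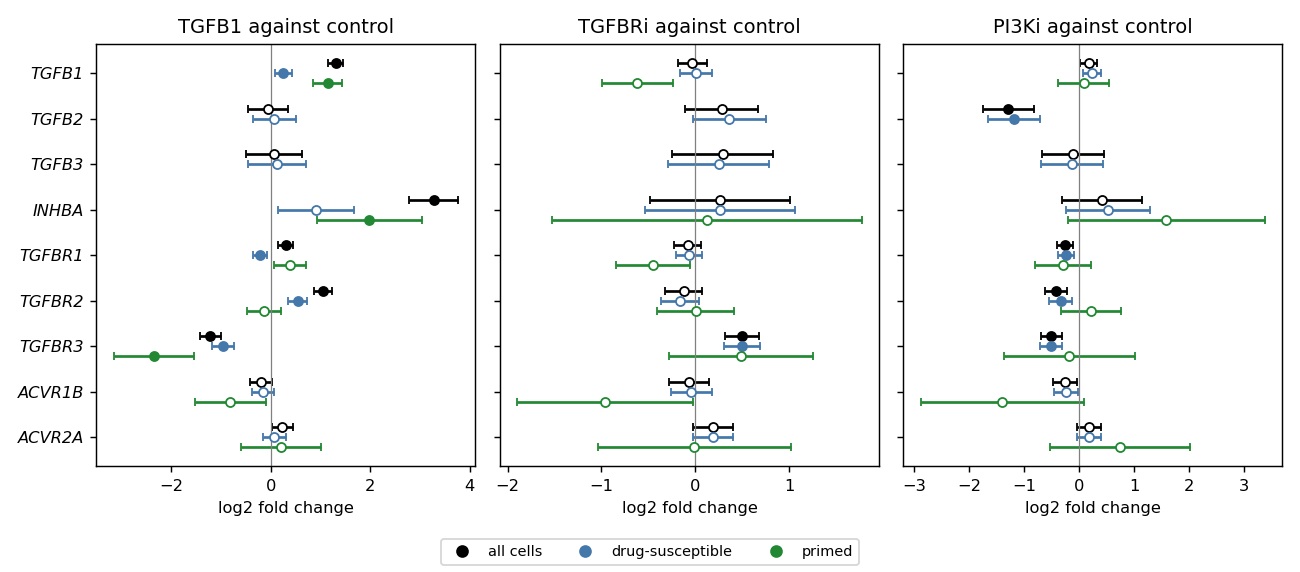
Log2 fold change against Control of each tested member with its 95% interval from the edgeR fit, by treatment (1 panel each), for all cells (black), drug-susceptible cells (blue) and primed cells (green), where filled points have an adjusted p under 0.05. TGFBR3 is lower with TGFB1 in all 3 sets of cells (-1.21, -0.95 and -2.34), whereas TGFBR2 is higher in all cells (1.05) and in drug-susceptible cells (0.54) but not in primed cells (-0.13).

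Receptor inhibition changed 1 member. With TGFBRi, TGFBR3 had 12.2 and 12.3 CPM in all cells against 8.57 and 9.05 CPM in Control, 1.41-fold higher (1.24 to 1.60, edgeR adjusted p = 0.0022), where 1.09% of genes were called higher and 1.45% lower. It was also 1.41-fold higher in drug-susceptible cells (1.24 to 1.61, edgeR adjusted p = 0.00225), where 1.22% of genes were called higher and 1.59% lower. This direction is opposite to that with added TGFB1, and the 2 comparisons share their Control libraries. Drug-susceptible cells were again spread differently over clusters. Cluster 8, which had the most TGFBR3 of the drug-susceptible clusters (11.4 CPM), held 10.0% of TGFBRi and 4.84% of Control drug-susceptible cells, cluster 2 held 17.8 and 10.0%, and cluster 9, at 5.02 CPM, held 1.197 and 3.76%. Of the 11 drug-susceptible clusters 6 had at least 50 cells in each Control and TGFBRi library, and in these 6 TGFBR3 was higher with TGFBRi than in Control in both replicates. In cluster 0 it had 10.9 and 11.9 against 7.75 and 8.57 CPM, and in cluster 8 16.02 and 13.6 against 10.98 and 12.1 CPM. This is a description chosen after the values were seen.

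The call for TGFBR3 with TGFBRi needed the term for replicate, since it had an adjusted p of 0.143 in all cells and 0.157 in drug-susceptible cells without it. In all cells it was also lost without Control replicate 2 (adjusted p = 0.0538). TGFB1 itself stood at 15.2 and 16.2 CPM with TGFBRi (0.978-fold, 0.878 to 1.09), and TGFBR1, TGFBR2 and INHBA did not pass the test. In primed cells TGFB1 had 31.3 and 32.7 CPM with TGFBRi against 48.4 and 50.3 CPM, without overlap, but the difference did not pass the test across genes (log2 -0.62, -0.997 to -0.243, edgeR adjusted p = 0.207). No member was called in primed cells by edgeR, where 0.0732% of genes were called higher and 0.302% lower.

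PI3K inhibition lowered 4 of the 9 members in all cells and raised none, where 5.83% of genes were called higher and 6.83% lower. TGFB2 had 0.653 and 1.11 CPM in Control and 0.313 and 0.359 CPM with PI3Ki, a fold change of 0.409 (0.296 to 0.565, edgeR adjusted p = 0.000441). TGFBR3 had 5.85 and 5.73 CPM with PI3Ki, 0.704-fold of Control (0.615 to 0.805, edgeR adjusted p = 0.000799). Both lay below Control in each library. Of the 6 tested markers of other cell types LUM was called, at 28.6 and 29.0 CPM in Control and 20.4 and 19.8 CPM with PI3Ki (log2 -0.41, edgeR adjusted p = 0.000401), and its part was not tested.

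The signalling receptors also fell. TGFBR2 had 4.01 and 4.97 CPM with PI3Ki against 6.17 and 6.86 CPM, a fold change of 0.748 (0.651 to 0.858, edgeR adjusted p = 0.00493). TGFBR1 had 19.0 and 19.97 CPM against 23.5 and 26.9 CPM, 0.832-fold (0.750 to 0.922, edgeR adjusted p = 0.0155). The libraries did not overlap for either gene. In all cells the TGFBR2 call was lost in 3 alternatives, without Control replicate 2 (adjusted p = 0.0556), without PI3Ki replicate 1 (0.163) and without the replicate term (0.0674), and that of TGFBR1 in 5, among them each left-out Control or PI3Ki library (0.0865 to 0.227). TGFB1 (18.2 and 16.03 CPM) and INHBA (0.214 and 0.278 CPM) did not pass the test. When 1 TGFBRi library was left out, whichever it was, TGFB1 was called higher with PI3Ki in all cells (lowest edgeR adjusted p = 0.0445) and in drug-susceptible cells (0.00997), and ACVR1B was called lower in all cells (0.0465), so that 2 of 13 alternatives gave each of these calls.

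In drug-susceptible cells the same 4 genes were called lower with PI3Ki, where 5.89% of genes were called higher and 6.22% lower. The fold changes were 0.438 for TGFB2 (edgeR adjusted p = 0.00101), 0.700 for TGFBR3 (0.000878), 0.790 for TGFBR2 (0.025) and 0.844 for TGFBR1 (0.0189). Leaving out PI3Ki replicate 2 took TGFBR3 past the threshold in all cells (adjusted p = 0.0607) and in drug-susceptible cells (0.0823). Leaving out Control replicate 2 did so for TGFB2 in all cells (0.0565) and in drug-susceptible cells (0.0655), where leaving out PI3Ki replicate 2 did so too (0.0542). In drug-susceptible cells the TGFBR2 call was lost in 5 of 13 alternatives (adjusted p up to 0.426) and that of TGFBR1 in 5 of 13 (up to 0.297), among them the fit without the replicate term (0.124 and 0.123).

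Here too the cells of the compared libraries were spread differently over clusters. Cluster 6 held 23.5% of drug-susceptible PI3Ki cells and 2.21% of drug-susceptible Control cells, and 88.5% of it came from PI3Ki libraries, while cluster 0 held 19.6 and 39.2%. Over all conditions cluster 6 had 0.333 CPM of TGFB2, 17.3 CPM of TGFBR1, 4.04 CPM of TGFBR2 and 5.41 CPM of TGFBR3. Over the other drug-susceptible clusters as a whole the 4 genes were still lower with PI3Ki in both replicates. TGFB2 had 0.291 and 0.372 CPM (r1 and r2) there against 0.630 and 0.923 CPM in Control, and TGFBR3 5.93 and 5.94 against 8.50 and 9.14 CPM. TGFBR2 had 4.15 and 4.74 against 5.85 and 5.94 CPM, and TGFBR1 20.1 in each replicate against 23.1 and 26.3 CPM. This split was chosen after the values were seen and is a description without a test, and the shares of the remaining clusters were not held equal in it.

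In primed cells, of which the PI3Ki libraries held 25 and 70, no member was called, where 0.467% of genes were called higher and 1.32% lower.

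The other genes of the pathway were taken from 6 lists by function. With TGFB1 in all cells 16.3% of all genes were called higher and 12.7% lower. With TGFB1 in all cells, 9 of 9 tested TGF-beta target genes rose (median log2 fold change 3.92), among them TGFBI (7.06) and COL1A1 (5.06), which code for matrix proteins. Of 11 SMAD and feedback genes 9 rose and 0 fell (median 1.21), led by PMEPA1 (6.08) and SKIL (3.397), both of which restrain SMAD signalling, while SMAD7, the inhibitory SMAD, rose by 2.29. Of 15 tested genes of latency and activation 11 rose and 2 fell (median 0.82), with FBN1 (4.37), which codes for fibrillin of the matrix microfibrils, and LTBP2 (3.92), a microfibril protein related to the latent TGF-beta binding proteins, at the top and the integrin subunit gene ITGB8 (-0.91) at the bottom. LTBP2 stands in 2 of the lists, since it is also 1 of the 9 targets and the gene at their median, so the counts of these lists are not separate.

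The remaining receptors and ligands moved less uniformly, as the members did. Of 9 tested other receptors 2 rose (BMPR2 0.56, ACVR1 0.32 on the log2 scale) and 3 fell (ACVR1C -0.91, ACVR2B -0.37, ENG -0.32). Of 3 tested other ligands LEFTY1 rose (5.61) and GDF11 fell (-0.47). Of 5 antagonists FST (0.83) and FSTL3 (0.57), which bind activin, rose and none fell. Calls are by the same edgeR test, where 16.3% of all genes were called higher and 12.7% lower. These lists hold too few tested genes for a reading of their counts.

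Most tested genes of 3 of the lists also rose within each state. In drug-susceptible cells 8 of 9 targets, 8 of 11 SMAD and feedback genes and 9 of 14 latency genes rose with TGFB1. Of all genes 8.56% were called higher and 6.32% lower there. In primed cells 7 of 8 targets, 7 of 11 SMAD and feedback genes and 7 of 13 latency genes rose, where 6.21% of all genes were called higher and 7.09% lower. Of the latency genes 2 fell in drug-susceptible and 3 in primed cells, ITGB8 in both (-0.78 and -2.05). SMAD3, a receptor-regulated SMAD, was the 1 gene of its list that fell in drug-susceptible cells (-0.27). The other 3 lists had few calls within states. Among antagonists BAMBI, a decoy receptor, rose in drug-susceptible cells (0.29) and fell in primed cells (-0.58), where FSTL3 rose (1.14) and DCN fell (-2.04). BMPR2 rose (0.50 and 0.66) and ACVR1C fell (-0.63 and -1.18) in both states, ENG fell in drug-susceptible cells (-0.31), and GDF11 fell in both (-0.22 and -0.89).

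TGFBRi lowered 4 of 11 SMAD and feedback genes in all cells, PMEPA1 (-2.35), SKIL (-1.76), TGIF1 (-0.52) and SMAD7 (-0.37), and raised SMAD3 (0.35). Among the 9 targets it lowered FN1 (-0.59) alone. In that comparison 1.09% of all genes were called higher and 1.45% lower. PI3Ki lowered 5 of 15 latency genes, among them LTBP1 (-1.35) and ITGB8 (-0.88), and 3 of 9 targets, among them COL1A1 (-2.48) and FN1 (-1.74), while CCN2 rose (0.46). With PI3Ki in all cells 5.83% of all genes were called higher and 6.83% lower.

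ATAC-seq compared chromatin at these genes in marker-high and marker-negative cells, as MACS2 fold enrichment of a peak over its local background. Of 152014 regions with a peak in at least 3 libraries, 78272 had a peak in all 12 and were tested with limma. Of the 152014 regions 97 lay within 10 kb of a member, and 56 of these were tested. The other member regions lacked a peak in at least 1 library, so differences there are missing from the calls below. At TGFBR3, chr1:91750195-91750905 had a peak in 0 Mix libraries and in 3 of each marker-high sort. The region next to it, chr1:91750969-91752002, had a peak in 3 libraries of every sort, Mix included. Whether the first reflects only where a peak ends was not tested. At TGFB2, chr1:218421270-218421892 had a peak in 0 Mix, 1 EGFR-High, 3 NGFR-High and 3 EGFR-NGFR-High libraries. In the same order chr1:218420249-218420606 had a peak in 3, 2, 0 and 2. These untested regions were picked as examples, and the share of all regions with such patterns was not counted. Against Mix, 1 member region was called higher and 1 lower in EGFR-High cells, where 1.9% of all regions were called higher and 6.09% lower. In NGFR-High cells 4 were higher and 0 lower (6.37% and 4.22% of all regions), and in EGFR-NGFR-High cells 4 were higher and 0 lower (7.46% and 3.72%). The share of the 56 regions called higher was 7.14% in each of the last 2 sorts, about that of all regions, so the counts are no result about the members and the regions below are described singly. The median log2 difference of all regions was -0.16 in EGFR-High, 0.05 in NGFR-High and 0.04 in EGFR-NGFR-High cells.

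The 4 regions called higher in both NGFR-High and EGFR-NGFR-High cells were linked to TGFB1, TGFBR1, TGFBR2 and TGFBR3, 1 each. They were chosen by calls on these same libraries, so libraries that lie apart from Mix describe the calls and add no separate support. The share of all regions with such a gap was not counted. The TGFB1-linked region, chr19:41322842-41324225 on hg38, lies 30.4 kb from the TGFB1 start, overlaps an exon of the neighbouring gene CCDC97 and lies in an intron of only the longest annotated TGFB1 transcript, so that its gene is uncertain. Its fold enrichment was 6.27, 5.18 and 5.32 in Mix, 11.95, 12.3 and 11.7 in EGFR-High, 12.3, 9.18 and 9.40 in NGFR-High and 15.8, 10.9 and 7.94 in EGFR-NGFR-High libraries. All 9 marker-high libraries lay above all 3 Mix libraries. The log2 differences were 1.11 ± 0.216 (SE, limma adjusted p = 0.0078), 0.87 (0.0158) and 0.99 (0.00669) in the same order of sorts. In NGFR-High cells the call was lost without Mix replicate 2 (adjusted p = 0.059) or NGFR-High replicate 1 (0.0927).

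The TGFBR3 region, chr1:91830148-91830766 in an intron 75.9 kb from the start, had 6.27, 8.48 and 6.29 in Mix. It had 17.1, 17.1 and 14.6 in NGFR-High and 14.9, 15.1 and 13.4 in EGFR-NGFR-High libraries, well above Mix, and 14.1, 11.8 and 6.85 in EGFR-High libraries, which overlapped it. The log2 differences were 1.22 ± 0.227 (SE, limma adjusted p = 0.00273) and 1.06 (0.00603) in the first 2 sorts and 0.59 (0.117) in EGFR-High cells. No left-out library removed the first 2 calls. Among peaks with −log10 q of at least 10 this region did not have a peak in all 12 libraries and was not tested. The same held for the regions linked to TGFB1 and TGFBR1, but not for that of TGFBR2. The rise at this region in NGFR-High and EGFR-NGFR-High cells stands beside a TGFBR3 transcript ratio between the states of 0.668 in r1 and 1.01 in r2.

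The TGFBR2 region, chr3:30658732-30660041 in an intron 52.8 kb from the start, had 7.17, 10.4 and 9.20 in Mix, 17.1, 14.9 and 14.1 in NGFR-High and 17.6, 17.5 and 12.4 in EGFR-NGFR-High libraries. The log2 differences were 0.80 ± 0.193 (SE, limma adjusted p = 0.0140) and 0.83 (0.0102), and 0.49 (0.125) in EGFR-High cells at 13.7, 10.9 and 12.7. None of the 3 sorts overlapped Mix. Without Mix replicate 1 both calls were lost (adjusted p = 0.0723 and 0.0584), and without NGFR-High replicate 1 that in NGFR-High cells (0.0752).

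The TGFBR1 region, chr9:99147885-99148247 in an intron 44.03 kb from the start, had 6.27, 5.18 and 7.26 in Mix, 9.54, 9.18 and 12.7 in NGFR-High and 14.9, 9.45 and 8.44 in EGFR-NGFR-High libraries. The log2 differences were 0.75 ± 0.219 (SE, limma adjusted p = 0.0378) and 0.78 (0.0297), and 0.62 (0.0914) in EGFR-High cells at 9.82, 10.4 and 8.32. Every marker-high library lay above Mix. The NGFR-High call was lost without any 1 of the 3 NGFR-High libraries (adjusted p 0.0522 to 0.13) or without Mix replicate 1 (0.0848) or 2 (0.151), and the EGFR-NGFR-High call without EGFR-NGFR-High replicate 1 (0.139) or Mix replicate 1 (0.0708) or 2 (0.125). The 1 lower call, an ACVR1B intron at chr12:51961861-51962240 in EGFR-High cells (log2 -0.76, limma adjusted p = 0.0447), was lost in 10 of 14 alternatives.

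**Figure D5:**
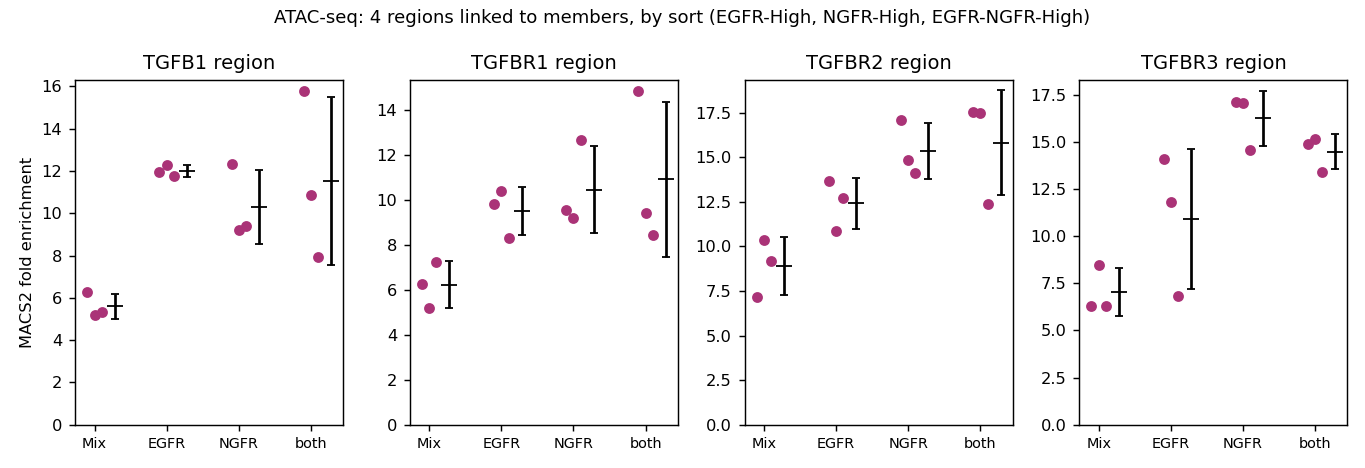
MACS2 fold enrichment (axis from 0) of the 4 regions called higher near TGFB1, TGFBR1, TGFBR2 and TGFBR3 in the Mix, EGFR-High, NGFR-High and EGFR-NGFR-High (both) libraries, with 1 point per library and the mean ± SD of the 3 libraries beside it. At the TGFB1-linked region all 9 marker-high libraries (7.94 to 15.8) lie above the 3 Mix libraries (5.18 to 6.27). The regions were chosen by calls on these same values.

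The promoters of 7 of the 10 members were open in both kinds of cell, with a peak in the RefSeq promoter window in all 12 libraries. At the TGFB1 promoter the mean fold enrichment was 17.4 ± 0.936 (SD, n = 3) in Mix and 15.1, 18.5 and 17.2 in EGFR-High, NGFR-High and EGFR-NGFR-High libraries (exact two-sided permutation p = 0.3, 0.2 and 0.9). The groups overlapped at this promoter, the one of a gene whose transcript had a state ratio of 6.58 in r1 and 6.60 in r2.

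At the TGFBR1 promoter the mean was 47.3 ± 5.24 (SD, n = 3) in Mix, 59.4 ± 5.08 in NGFR-High and 60.2 ± 2.22 in EGFR-NGFR-High libraries, without overlap (exact permutation p = 0.1 for both), and 48.9 in EGFR-High libraries (exact permutation p = 0.7). The ACVR2A promoter had 42.2 in Mix, 59.5 in NGFR-High and 55.9 in EGFR-NGFR-High libraries, and that of ACVR1B 26.8, 40.1 and 40.7, also without overlap (exact permutation p = 0.1 each). TGFB3 had 23.5 in Mix and 29.7 in EGFR-NGFR-High libraries, without overlap (exact permutation p = 0.1), and 26.9 and 26.7 in EGFR-High and NGFR-High libraries, which overlapped Mix (exact permutation p = 0.3 and 0.2). With 3 libraries against 3, 0.1 is the smallest p the test allows. ACVR2A had transcript ratios of 1.35 and 1.501 between the states (r1 and r2), and ACVR1B of 1.13 and 1.14.

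The promoters of TGFBR2 and TGFBR3 overlapped Mix in every sort. TGFBR2 had 24.0 in Mix and 28.2, 32.2 and 30.0 in EGFR-High, NGFR-High and EGFR-NGFR-High libraries (exact permutation p = 0.3, 0.2 and 0.3), and TGFBR3 57.2 and 55.3, 60.4 and 53.7 (exact permutation p = 0.6, 0.6 and 0.4). Of the 7 promoters, 0 lay wholly above Mix in EGFR-High, 3 in NGFR-High and 4 in EGFR-NGFR-High libraries, where 3.87, 26.2 and 12.2% of 12843 promoters with a peak in all 12 libraries did.

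The TGFB2, INHBA and INHBB promoters did not have a peak in all 12 libraries. At the TGFB2 window a peak was called in 1 Mix and 2 NGFR-High libraries, although the wider region chr1:218345182-218346343 had a peak in all 12. INHBA had no peak in its RefSeq window in any library. A peak in all 12 libraries at chr7:41704780-41706092 covered the farther start that GENCODE gives for INHBA, with a fold enrichment of 29.9 to 57.1. This stretch also overlaps an antisense gene, INHBA-AS1. INHBB had no peak in its window in any library and next to no transcripts.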

How the data were processed

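Single-cell values are deposited UMI counts from Cell Ranger (hg38), which the authors combined with no depth scaling and filtered in Seurat, beside a table of each cell's state, cluster, treatment and replicate. ATAC-seq values are deposited MACS2 2.1.1.20160309 peaks of each library (bowtie2 2.3.4.1, SAMtools 1.1), whose fold enrichment is a ratio over local background and whose −log10 q-value served as a filter. Gene annotation and Cell Ranger version are not given in the sources used here.

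Members and lists were chosen with earlier results of these data known. All 10 members were named, with the 3 most similar genes for TGFB1, TGFBR1 and INHBA, and 2 to 4 called genes of each pathway list with the largest changes. Counts were summed per state, cluster, well or library and given as CPM, with no doublet caller run. The test of the treatment sums was that of edgeR 4.0.16 under R 4.3.3 (filterByExpr, TMM factors of 0.941 to 1.05 over all cells, terms for treatment and replicate, 3 residual degrees of freedom, two-sided, Benjamini-Hochberg adjustment over all genes, threshold 0.05). Fold intervals are 95% intervals of that fit. Replicate r1 or r2 marks a starting well that was split over the 4 plates. The r2 to r1 differences correlated between all 6 pairs of treatments (r 0.256 to 0.365 over 18389 genes). ATAC regions with a peak in 12 of 12 libraries were tested with limma 3.58.1 on log2 fold enrichment. Permutation tests used scipy 1.17.1 and tables pandas 2.3.3 in Python 3.11.15. Depth behind ATAC peaks is unknown. Both fits were tested on simulated data. Alternatives were DESeq2 1.42.0, other scaling, filters, cells, wells, libraries, replicate terms, peak thresholds and link distances. Positions follow GENCODE, and promoters RefSeq GRCh38.p14. The values of 1 listed gene are not reported here.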

Additional observations from a re-analysis of the deposited data

Results flagged for a closer look

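Several members differed in sign between states or between lines, and none of these differences was itself tested. With TGFB1, TGFBR1 had a log2 fold change of -0.22 in drug-susceptible cells (-0.21 and -0.20 in r1 and r2 taken alone) and 0.39 in primed cells (0.02 and 0.52). With PI3Ki, TGFBR2 had -0.34 in drug-susceptible cells (-0.59 and -0.33) and 0.21 in primed cells (0.65 and 0.06), where the PI3Ki libraries held 25 and 70 primed cells. The ratio of primed to drug-susceptible CPM was 0.522 in WM989 and 1.26 in WM983B for TGFB3, and 1.19 in WM989 and 0.930 in WM983B for ACVR1B. In WM983B the intervals of both ratios spanned 1.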

How the results depend on the processing

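Of the counts of members or regions called, 155 values under alternatives stayed within 1.5 times the reported count and 38 did not. With TGFB1, the calls of INHBA, TGFB1, TGFBR2 and TGFBR3 in all cells, of TGFBR2 and TGFBR3 in drug-susceptible cells and of TGFB1 and TGFBR3 in primed cells held under all alternatives that tested them. Replicate numbers pair the treatment libraries, and with no replicate block the calls for TGFBRi were 0 in all and 0 in drug-susceptible cells (1 each with it), those for PI3Ki 2 and 2 (4 each), those for TGFB1 in drug-susceptible cells 2 (4), while TGFB1 kept counts of 5 in all and 3 in primed cells. TGFB1 in drug-susceptible cells gave 2 calls with DESeq2, and TGFB1 in primed cells 5 with no filter on low counts and 1 with equal cells per library (25). Leaving out 1 library, calls ranged from 4 to 5 (TGFB1), 0 to 1 (TGFBRi) and 1 to 6 (PI3Ki) in all cells, from 2 to 4, 1 to 1 and 1 to 5 in drug-susceptible cells, and from 2 to 4, 0 to 0 and 0 to 0 in primed cells. In WM989, leaving out 1 well left 6 to 7 ratios with an interval above 1 and 2 to 3 below 1, and the TGFBR3 ratio turned to 1.01 in r2 alone and ranged from 0.807 to 1.13 (without well 2) without 1 well. Those intervals cover counting error only, and the share of all genes with such an interval was not counted. These counts of ratios are therefore no result about the members. ATAC regions called numbered 7 (EGFR-High), 9 (NGFR-High) and 7 (EGFR-NGFR-High) within 50 kb, 4 in EGFR-High after quantile normalization, and 1 in EGFR-High and 1 in EGFR-NGFR-High among peaks with −log10 q of at least 10. They ranged from 1 to 3, 1 to 6 and 2 to 5 without 1 library. ATAC replicate numbers did not meet the bar for pairing, since not every same-number pair had r over 0.1 (-0.000281 to 0.174 over 18 pairs, and -0.157 to 0.0404 over 36 pairs of other numbers), and with a replicate block the counts were 3, 6 and 6 in place of 2, 4 and 4. The causes were not tested. Counts of INHBB, and of INHBA in primed Control cells, were too few to read a change of INHBB or to fix the size of that of INHBA.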
